A study of Mus musculus with 4 samples.

Results

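Eomes, Tbr1, Reln, Trp73, Lhx1 and Lhx5 were followed across the cells of the embryonic mouse head and brain at E10.5, when the first neurons of the forebrain are being born. The genes were chosen by name, with earlier expression results of these data known, and are 6 of the 20719 genes listed over the 4 libraries. All 6 were found in the count matrices, and the cells in which they are described were selected on marker sums of other genes. Single cells came from 2 libraries labelled Apcdd1+/- (heterozygous for a mutant allele of Apcdd1, which encodes a membrane inhibitor of Wnt signalling) and 2 labelled WT, all from E10.5 embryonic brain. The labels do not say whether a library is 1 embryo or a pool, how the allele was made, or the strain, so the spread between the 2 libraries of a label may be partly technical. Heads were dissociated after a night in preservation solution, and dead cells were removed by sorting before droplet capture. Values for the 4 libraries are given throughout in the order Apcdd1+/- 1, Apcdd1+/- 2, WT 1 and WT 2. They are CPM, the UMIs (unique molecular identifiers, 1 per captured RNA molecule) of a gene per 1000000 UMIs summed over a set of cells in a library.

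These genes belong together in the textbook account of the earliest cortical neurons. Eomes (Tbr2) and Tbr1 encode T-box transcription factors that follow each other as pallial cells leave the cycle and become glutamatergic neurons. Reln encodes reelin, a secreted protein of Cajal-Retzius cells that acts through the receptors Vldlr and Lrp8 and the adaptor Dab1, and Trp73 encodes the p53 relative p73, a marker of the Cajal-Retzius cells that arise at the cortical hem. Lhx1 and Lhx5 encode closely related LIM-homeodomain factors that act in the early nervous system well beyond the cortex. Lhx5 is also a gene of the hem and other forebrain progenitor fields.

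In GENCODE vM21 on mm10, Eomes lies at chr9:118478212-118486132 on the plus strand and Tbr1 at chr2:61802930-61814114 on the plus strand. Reln, the longest of the 6, lies at chr5:21884454-22344702 on the minus strand and has up to 65 exons in a transcript. Trp73 lies at chr4:154056253-154140208 (minus), Lhx1 at chr11:84518284-84525535 (minus) and Lhx5 at chr5:120431699-120441223 (plus). The UMIs are counted per gene, so neither an exon nor an isoform can be read from them. The antisense gene Trp73os overlaps Trp73 and is not among the listed genes, and whether counting used strand is not known from the labels or headers.

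The 250 bases before the RefSeq start sites of Eomes and Tbr1 (GRCm38.p6, plus strand) are shown because these T-box genes had the highest correlation over clusters of any pair among the 6 (Pearson r = 0.83 over 19 clusters, a description). Capitals mark matches to 3 short motifs searched on both strands: TAATTA, a homeodomain core, CANNTG, the E-box bound by basic helix-loop-helix factors, and CCAAT with its reverse complement ATTGG.
Eomes: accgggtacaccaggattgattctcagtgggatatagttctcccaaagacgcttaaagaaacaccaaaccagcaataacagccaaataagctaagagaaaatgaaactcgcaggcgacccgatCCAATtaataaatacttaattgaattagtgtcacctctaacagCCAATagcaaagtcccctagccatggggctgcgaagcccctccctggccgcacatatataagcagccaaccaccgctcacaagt
Tbr1: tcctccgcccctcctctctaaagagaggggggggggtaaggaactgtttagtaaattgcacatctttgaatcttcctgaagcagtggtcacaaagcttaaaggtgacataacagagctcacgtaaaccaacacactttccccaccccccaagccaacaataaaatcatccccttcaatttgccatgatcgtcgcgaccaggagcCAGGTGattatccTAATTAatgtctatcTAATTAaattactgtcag
The Eomes window, chr9:118477939-118478188, held CCAAT 2 times, at -127 and -84 from the start site, and neither of the other motifs. The Tbr1 window, chr2:61804203-61804452, held TAATTA 2 times, at -33 and -18, and 1 E-box, CAGGTG at -46, but no CCAAT. GENCODE places the Tbr1 window over an exon of a non-coding Tbr1 transcript that starts further upstream. Of 32851 RefSeq windows of this length, 4.84% held TAATTA, 66.2% CANNTG and 33.8% CCAAT or ATTGG. These are matches of letters, not binding sites. The promoter table also held Reln, Trp73 and Lhx1, which are not printed, and Lhx5 was not matched.

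After a filter of at least 500 genes and under 10% mitochondrial UMIs, 24259 cells were used: 9501, 5544, 6258 and 2956 by library. The deposited matrices held 55393605 to 96822641 UMIs, and the median kept cell had 9118, 8934.5, 11506 and 17133.5 UMIs, so both WT libraries were the deeper ones per cell. Apcdd1 itself overlapped between the labels over all cells, at 77.4, 49.5, 63.4 and 60.8 CPM (log2 difference 0.083, SE 0.23, edgeR adjusted p = 1.00). UMIs outside a deleted part would still be counted, and the allele is not described, so this level does not check the genotype, and the groups are called by their labels. Pairs of libraries shared 6 to 25 bead barcodes of the 4185 to 7281 in each list, although the list of Apcdd1+/- 1 breaks off early. The Y-linked Eif2s3y stood at 0, 42.7, 34.3 and 0 CPM, so libraries with and without Y-linked RNA occur under both labels.

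Cells were sorted by marker sums that contain none of the 6 genes. Neuron-gated cells had at least 30 UMIs per 10000 of 18 neuron genes such as Tubb3 and Stmn2, neuroblast-gated cells at least 15 of 13 genes such as Neurog2 and Dll1 without reaching the neuron threshold, and progenitor-gated cells at least 10 of 10 genes such as Sox2 and Hes5. This gave 1650, 1307 and 14264 cells. The gates cut a continuous range, and 1073 cells had a neuron sum from 15 to 60. Neuron-gated cells also held peripheral neurons: the summed sensory ganglion markers stood at 1117, 1842, 1611 and 2336 CPM there, and a cluster led by Kcnmb2 with 173 cells had 65, 50 and 58 cells in the other libraries and 0 in Apcdd1+/- 1. The 2957 neuroblast- and neuron-gated cells were grouped into 20 clusters without using the 6 genes, and each cluster is called by its leading genes. All levels by gate, region and cluster are descriptions, since cells of 1 library are not replicates.

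Eomes lay mainly in neuron-gated and neuroblast-gated cells. Its 1720 UMIs lay in 216 cells, 65.5% of them in neuron-gated and 28.0% in neuroblast-gated cells. Progenitor-gated cells stood at 0.086, 0.12, 0.85 and 0.34 CPM, neuroblast-gated cells at 30.5, 40.7, 48.0 and 33.0, and neuron-gated cells at 54.9, 43.5, 93.5 and 75.6. Neuroblast-gated cells still held the progenitor markers, with a sum of 1977, 1924, 2038 and 2148 CPM against 2015, 1966, 2112 and 2178 in progenitor-gated cells, and exit from the cell cycle was not measured. Within each library the neuron gate was the higher of the last pair, but across libraries the ranges overlapped, from 30.5 to 48.0 and from 43.5 to 93.5. Erythroid-gated cells, which should lack the gene, held 0 UMIs in 192 cells, and 0.366% of 3550 mesenchyme-gated cells had one against 5.45% of neuron-gated cells. The median depths were 11047 to 20745.5 UMIs by library in mesenchyme-gated cells and 7077 to 13949.5 in neuron-gated cells.

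Tbr1 was more confined to neuron-gated cells and much rarer. It had 189 UMIs in 82 cells, and 80.4% of them lay in neuron-gated cells, at 2.85, 13.6, 10.8 and 9.38 CPM. Neuroblast-gated cells stood at 1.02, 0.43, 0.25 and 0 CPM, below the neuron gate in every library, with 6 UMIs in all. Apcdd1+/- 1 was the low library in the neuron gate, and the other three lay within 9.38 to 13.6.

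Lhx1 and Lhx5 differed from each other in the progenitors. Lhx1 was nearly absent there (0.59, 0.28, 0.51 and 0.19 CPM), and 71.9% of its 2491 UMIs lay in neuron-gated cells at 81.8, 130, 125 and 93.8 CPM. Neuroblast-gated cells were between, at 30.5, 36.8, 31.0 and 50.4 CPM. Lhx5 was already present in progenitor-gated cells at 39.0, 38.7, 29.8 and 42.8 CPM, which held 61.6% of its 10021 UMIs. Its neuroblast gate stood at 54.1, 65.9, 44.7 and 48.2 CPM and its neuron gate at 137, 146, 147 and 129, without overlap between the neuron gate and either earlier gate. Most UMIs of Eomes, Tbr1 and Lhx1 thus lay in neuron-gated cells, and most of those of Lhx5 in progenitor-gated cells.

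Reln did not behave as a neuron gene alone either. Neuron-gated cells stood at 13.5, 19.7, 12.001 and 9.66 CPM, neuroblast-gated cells at 4.57, 1.73, 4.25 and 3.48, and progenitor-gated cells at 2.97, 3.59, 4.57 and 5.22. The last 2 ranges overlapped. Its highest level by gate was outside the nervous system: erythroid-gated cells, recognised by embryonic globins, stood at 43.0, 62.4, 36.1 and 37.5 CPM, above every neuron-gated library. There 64 of 192 cells had a Reln UMI (33.3%), and the summed neuron markers were at 58.7 to 76.5 CPM against 16491 to 22636 in the neuron gate. Eomes and Tbr1 were at 0 in the same erythroid-gated cells and Lhx5 at 0.96 to 4.17 CPM.

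Trp73 was too sparse for an order of gates. It had 153 UMIs in 82 cells, at 1.52, 3.03, 1.75 and 0 CPM in neuroblast-gated and 0.52, 1.31, 3.93 and 1.66 in neuron-gated cells, with overlapping ranges. Progenitor-gated cells held 22.2% of its UMIs at 0.16 to 0.25 CPM, near the level of single molecules, and gates of other cell types held 30.7%.

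**Figure D1:**
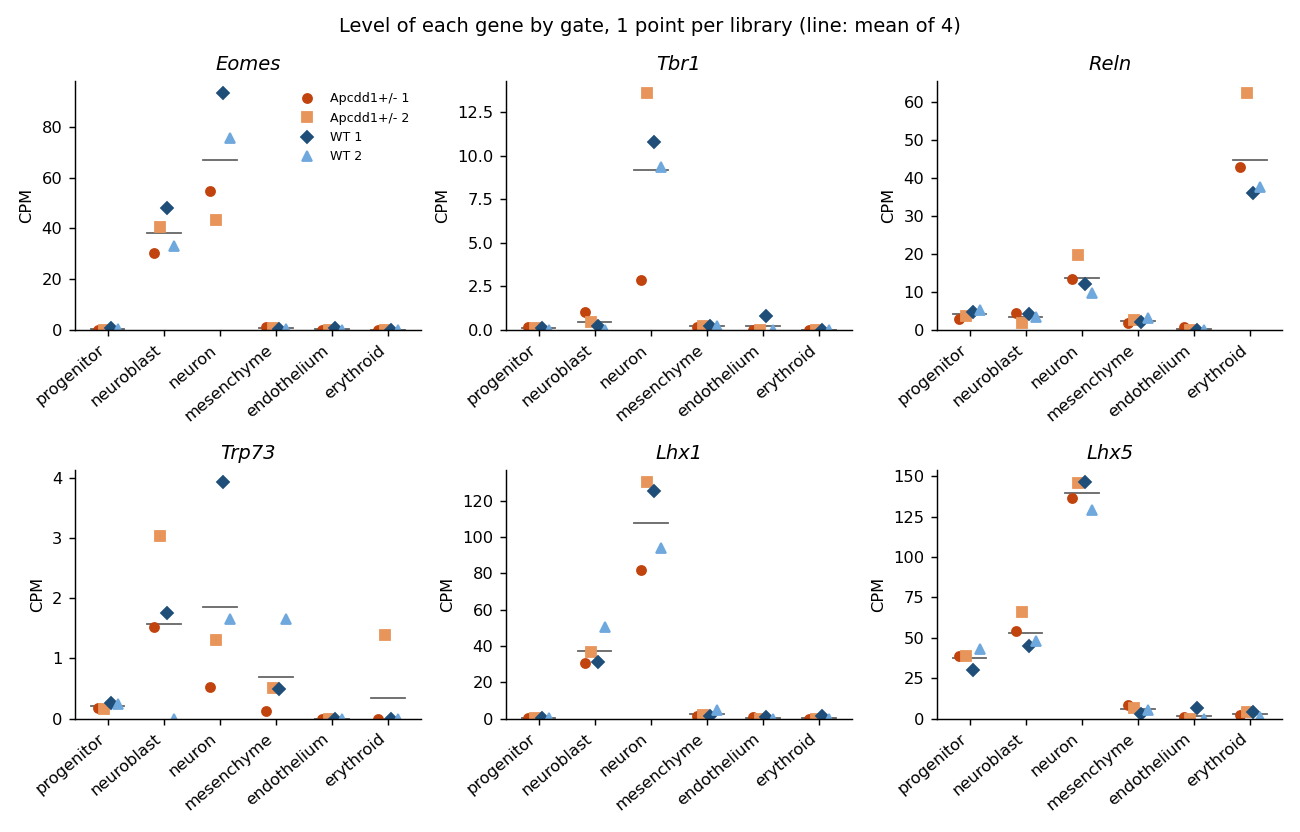
Level of each gene (CPM, linear axis from 0) in 6 gates, 1 point per library and a line at the mean of the 4 libraries; the vertical scale differs between genes. Eomes, Tbr1 and Lhx1 are near 0 in progenitor-gated cells, Lhx5 is not (29.8 to 42.8 CPM), and Reln is highest in erythroid-gated cells (36.1 to 62.4 CPM).

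Among the 20 clusters, a single one held nearly all Eomes and Tbr1. It had 179 cells and was led by Lhx2, Fezf2, Emx1, Rspo3 and Fezf1, genes of the dorsal forebrain, and made up 5.76, 6.41, 6.26 and 5.67% of the neuroblast- and neuron-gated cells of the 4 libraries. Eomes stood there at 613, 709, 1135 and 1059 CPM, and 1482 of the 1609 Eomes UMIs of the clustered cells (92.1%) lay in it, spread over 135 of its 179 cells. The cluster led by Dlk1, Nr2e1 and Wnt7b came next in spread at 22.3, 12.7, 23.9 and 30.7 CPM, and 15 of the 20 clusters held no Eomes UMI. In the cluster led by Dmrta2 and Spon1, 52 UMIs came from 4 cells of WT 1 (109 CPM) and the other three libraries were at 0.

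Tbr1 followed the same cluster, with 144 of its 158 UMIs, at 20.4, 138, 97.4 and 107 CPM. Its cells there were more restricted than those of Eomes. The 72 neuroblast-gated cells of the cluster had 0 Tbr1 UMIs, whereas 46 of the 107 neuron-gated cells had one. For Eomes these numbers were 49 of 72 and 86 of 107. The pallial factors Neurog1 (298 CPM ± 43.7, SD, n = 4 libraries), Neurog2 (184 ± 46.7) and Neurod1 (257 ± 37.7), which drive glutamatergic neuron formation, were present in the same cluster. Nhlh2 stood there at 516 ± 51.3. At least Neurog2 is a gene of the neuroblast gate, by which the 72 neuroblast-gated cells were selected. Its presence was thus partly set by the selection and is not separate evidence for the identity of the cluster.

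This cluster was also split by the neuron marker sum. The sum is not a measure of time, since all cells are from E10.5. Eomes was present from the lowest class on, at 487, 309, 736 and 367 CPM for sums under 15 and at 1003 ± 445, 1548 ± 819 and 1223 ± 557 (SD, n = 4 libraries) for sums of 30 to 60, 60 to 120 and 120 to 240. Tbr1 had 0 UMIs in the 72 cells under 30, which are the same neuroblast-gated cells as above, since 30 is the neuron threshold. It stood at 31.3, 32.6, 91.2 and 94.3 CPM from 30 to 60, at 58.0, 371, 172 and 119 from 60 to 120, and at 115, 432, 208 and 578 from 120 to 240. Each library thus had more Tbr1 in the last class than in the first of these 3. The last class holds 20 cells in all, 15 of them with a Tbr1 UMI, and only 1 cell of the cluster had a higher sum.

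The LIM genes also had higher levels in the upper classes of this cluster. Lhx1 averaged 27.4 CPM under 15 and 333 and 391 in the 2 highest classes, and Lhx5 averaged 163.5 under 15 and 609 and 473 in the 2 highest. In the class under 15, Lhx1 was thus lower than in the 2 highest classes, while Eomes averaged 475 CPM there. Trp73 averaged 37.1 CPM from 30 to 60 and was at 0 in the 20 cells from 120 to 240.

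**Figure D2:**
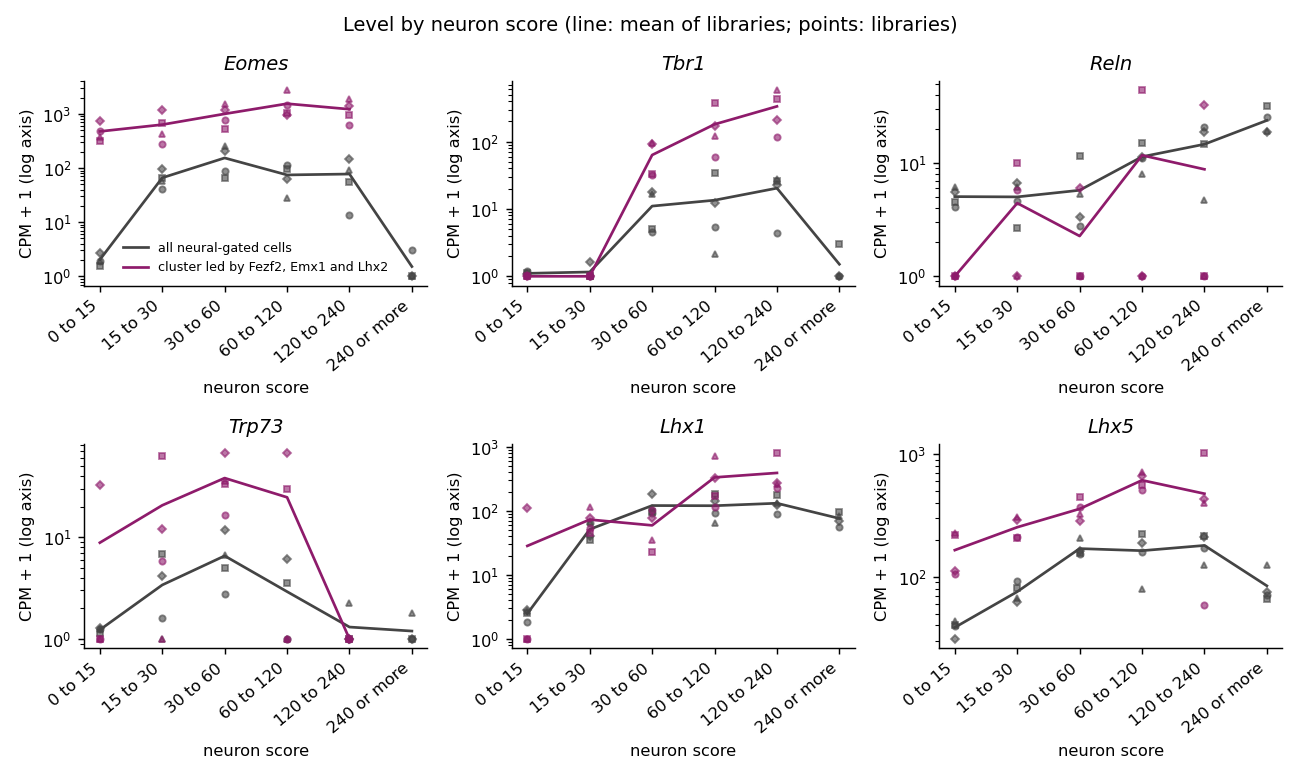
Level (CPM + 1, log axis) by neuron marker sum (UMIs per 10000) in all neural-gated cells and in the cluster led by Lhx2, Fezf2 and Emx1; lines are means of libraries and points are libraries. In the cluster, Eomes is high in every class, and Tbr1 is at 0 below a sum of 30 and averages 333 CPM from 120 to 240.

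Single cells with Tbr1 mostly had Eomes as well. Of 55 neuroblast- and neuron-gated cells with a Tbr1 UMI, 49 also had an Eomes UMI (89.1%, exact 95% binomial interval 77.8 to 95.9%), against 4.10% of the 2902 cells without Tbr1. The reverse share was smaller: 49 of 168 Eomes cells had Tbr1 (29.2%, interval 22.4 to 36.7%). Most UMIs of both genes lay in the same cluster, and most neuron-gated cells of that cluster had Eomes. The contrast with cells without Tbr1 thus largely restates the shared cluster. Whether the genes go together more closely within it was not tested. Cells with Eomes had a median of 8892 UMIs and cells without it 8201. Intervals cover counting error only, and cells of a library share its depth and its free RNA.

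Of the transmitter genes, the glutamatergic Slc17a6 was found in a part of these cells and Gad2 in none. Other transmitter genes are not reported here. Slc17a6, the vesicular glutamate transporter of early neurons, was found in 40 of 55 Tbr1 cells (72.7%), against 11.96% of cells without Tbr1. It was found in 50 of 168 Eomes cells (29.8%), against 12.1% of cells without Eomes. Both comparison groups include many neuroblast-gated cells, whereas most Tbr1 UMIs lay in neuron-gated cells, and the part of the gate was not tested. Gad2, an enzyme of GABA synthesis, was found in 0 of 55 and 0 of 168. A count of 0 in 168 cells allows up to 2.17% of cells with a captured Gad2 UMI by the exact interval, which does not limit the share of cells that express it. In the 281 neuroblast- and neuron-gated cells with at least 2 UMIs of Gsx2, Dlx1, Dlx2, Dlx5 or Sp9, genes of the subpallium, Eomes had 0 UMIs.

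By region genes, Eomes was high in cells with Emx1 or Emx2, which mark the pallium: 293, 279, 452 and 513 CPM in 187 cells. Cells with Wnt3a, Wnt2b or Wnt8b, ligands of the cortical hem and dorsal midline, stood at 129, 167, 181 and 114, without overlap with the Emx range. Cells with Otp or Sim1, genes best known from the hypothalamus, stood at 42.6, 154, 77.2 and 122. The clusters with Sim1 or Otp among their leading genes held 0 Eomes UMIs, so this level came from cells of other clusters. It does not place Eomes in hypothalamic neurons. Tbr1 had 46.5 CPM ± 26.3 (SD, n = 4 libraries) in the Emx cells and 16.1 ± 17.7 in the Otp or Sim1 cells, with overlapping SD ranges.

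Only 53 of the 153 Trp73 UMIs, in 19 of its 82 cells, lay in the clustered neuroblast- and neuron-gated cells. The same Lhx2-led cluster held 40 of these 53, at 6.11, 33.9, 40.1 and 12.6 CPM, in 12 of its 179 cells. Of the 19 cells, 12 had Eomes (63.2%, exact 95% interval 38.4 to 83.7%), 16 had Lhx5, 12 had Emx2 and 9 had Gmnc (47.4% against 1.12% of cells without Trp73). Gmnc encodes a geminin relative best known for multiciliated cells and also reported in hem-derived Cajal-Retzius cells. Gmnc stood at 171, 155, 176 and 12.6 CPM in this cluster, and the cyclin relative Ccno at 83.5, 28.2, 178 and 0. WT 2 was low for both, with 22 cells in the cluster. Reln was found in 2 of the 19 Trp73 cells.

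**Figure D3:**
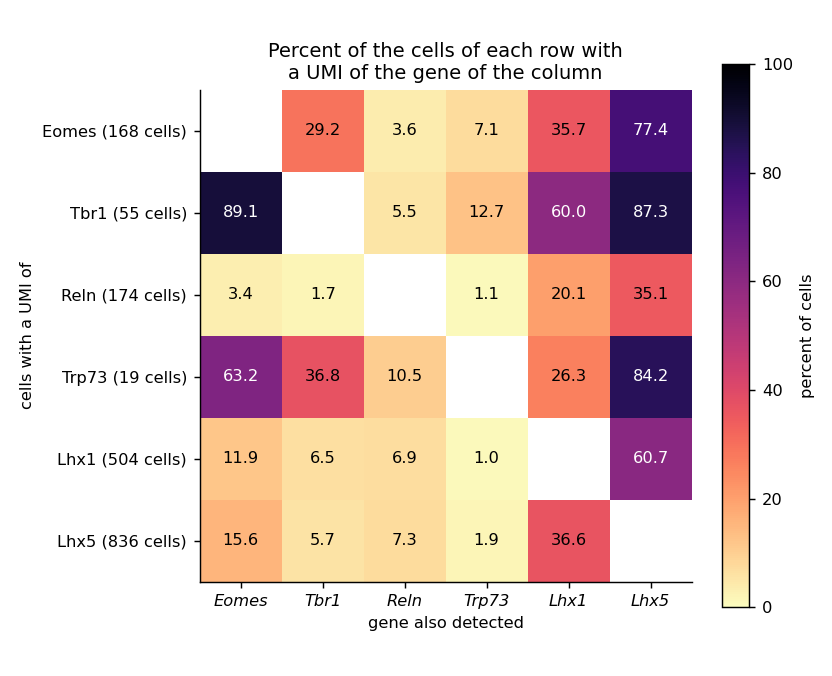
Percent of the neuroblast- and neuron-gated cells with a UMI of the row gene that also had a UMI of the column gene, with the number of row cells on the axis. Of Tbr1 cells, 89.1% had Eomes and 87.3% Lhx5, while 3.57% of Eomes cells had Reln.

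Reln had few UMIs in the Eomes cluster, 9 in all. It stood there at 2.04, 11.3, 7.64 and 0 CPM, with UMIs in 6 of 179 cells. Of the 168 Eomes cells, 6 had Reln (3.57%, interval 1.32 to 7.61%), and of the 2789 cells without Eomes 6.02% did, a share inside that interval. Among clusters of at least 50 cells, Reln was instead highest in 3 others. The cluster with Kcnk9 and Cbln2 among its leading genes stood at 23.2, 58.1, 44.8 and 18.2 CPM, that led by Tal1, Gata2 and Gata3 at 38.1, 47.2, 9.59 and 38.6, and that led by Tac1, Nwd2 and Bhlhe23 at 24.8, 48.4, 29.3 and 21.6. The 3 ranges overlapped, so their order is not resolved. In the last of these, 35 of 149 cells had a Reln UMI. These 3 clusters were 100, 83.8 and 100% neuron-gated, against 59.8% for the Eomes cluster. The part of the neuron sum in the contrast was not tested.

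Over all neural-gated cells Reln levels were higher at higher neuron sums. The gene averaged 4.05 CPM for neuron sums under 15, 10.4 from 60 to 120, and stood at 24.6, 30.6, 17.6 and 18.1 for sums of 240 or more, above the progenitor range in every library. Cells with Reln were also deeper, with a median of 11816 UMIs against 8094 in cells without it. Of 174 Reln cells, 64 had Slc17a6 (36.8% against 11.6% without Reln) and 17 had Gad2 (9.77% against 5.64%). The part of depth in these shares was not tested.

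The receiving side of the reelin pathway was present both in neurons and in progenitors. The adaptor gene Dab1 averaged 35.6 CPM in progenitor-gated, 34.1 in neuroblast-gated and 85.5 in neuron-gated cells, and 29.0 in the Lhx2-led cluster. The receptor genes Vldlr and Lrp8 averaged 6.79 and 33.8 CPM in progenitor-gated cells and 12.4 and 51.1 in neuron-gated cells. The kinase gene Fyn averaged 41.2 CPM in progenitor-gated and 144 in neuron-gated cells. Pafah1b1, which encodes the lissencephaly protein Lis1, averaged 249 and 365, and the integrin gene Itgb1 105 and 139.

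Lhx1 and Lhx5 were carried by several neuron groups, and Lhx1 was higher in 3 others than in the Eomes cluster. Lhx1 stood at 694, 754, 346 and 597 CPM in the cluster led by Robo3, Otp, Lamp5 and Pax2, at 501, 546, 544 and 432 in that led by Tal1, Gata2 and Gata3, and at 451, 559, 525 and 331 in that led by Glra1, Dbx1 and Pax2. These 3 ranges overlapped. The Lhx2-led cluster stood lower at 73.3, 158, 153 and 101 CPM, without overlap with any of the 3. Pax2, a factor of hindbrain and spinal inhibitory neurons, was found in 81 of 504 Lhx1 cells (16.1%) and in 0.938% of cells without Lhx1.

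Lhx5 was highest in the Tal1 and Gata2 cluster, at 414, 707, 576 and 496 CPM, followed within overlapping ranges by the Robo3 and Otp cluster at 463, 428, 193 and 453. The cluster led by Sim1, Apcdd1 and Foxa2 stood at 419, 379, 368 and 263 CPM for Lhx5 but at 24.3, 37.9, 29.5 and 9.07 for Lhx1. The Eomes cluster stood at 273, 443, 344 and 321 CPM of Lhx5, and the Glra1 and Dbx1 cluster at 132, 313, 259 and 327. With 573 of the 2954 Lhx5 UMIs of the clustered cells (19.4%), the Eomes cluster held more of them than the Tal1 (438), Robo3 (366), Sim1 (324) or Glra1 (277) cluster. The sensory cluster led by Kcnmb2 had 0 UMIs of either gene in 173 cells. Over all 2957 clustered cells, 306 had both genes, 198 Lhx1 alone and 530 Lhx5 alone.

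**Figure D4:**
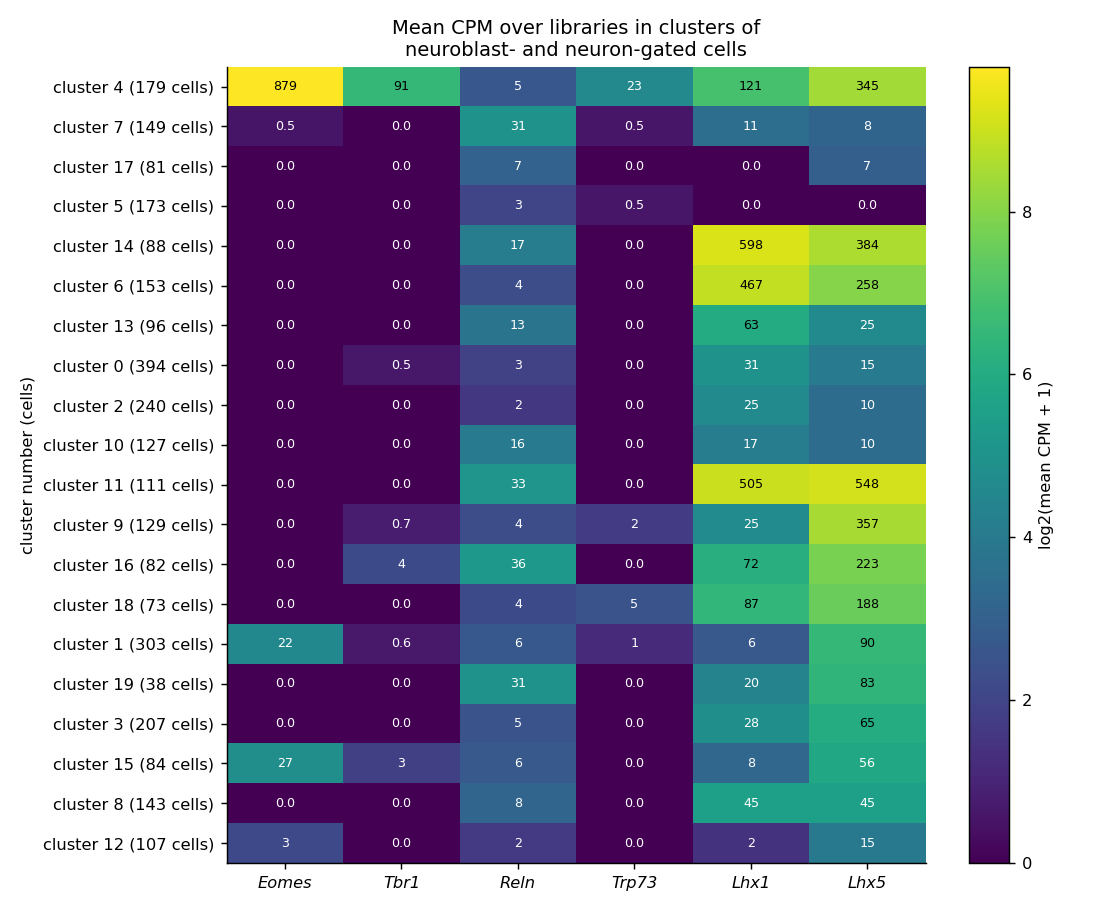
Mean CPM over libraries (number in each field, colour as log2 of mean CPM + 1) of the 6 genes in 20 clusters of neuroblast- and neuron-gated cells, each labelled by its number and its cells. Eomes and Tbr1 are concentrated in cluster 4, led by Lhx2, Fezf2 and Emx1 (Eomes mean 879 CPM), and Lhx1 is highest in clusters 14, 11 and 6, led by Robo3, Tal1 and Glra1. Lhx5 is high in these and also in clusters 4 (mean 345 CPM) and 9 (mean 357 CPM), the latter led by Sim1.

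In progenitor-gated cells Lhx5 differed between some regions, without a resolved order of all. Cells with Wnt3a, Wnt2b or Wnt8b were highest at 133, 111, 108 and 113 CPM, and cells with Nkx2-1 or Rax, genes of the hypothalamus, stood at 88.9, 91.0, 76.3 and 124. Their ranges overlapped. Emx cells stood at 68.7, 71.4, 64.2 and 88.5, overlapping the Nkx2-1 or Rax range but not the Wnt range. Cells with En1, En2 or Pax5, which mark midbrain and isthmus, were lowest of these at 6.96, 5.07, 4.39 and 7.08. That level is near the 3.01 to 8.24 CPM of mesenchyme-gated cells, so Lhx5 expression in it is not shown. Region gates are not exclusive, and a cell can count in several.

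The genes most like each member were ranked by Pearson correlation of log2(CPM + 1) over the 19 clusters with at least 50 cells. This is a description over clusters that share libraries and depth. Among the genes most like Eomes were Rspo3 (r = 0.81), a Wnt pathway ligand, Fezf2 (0.74), Mcph1 (0.66) and Dmrta2 (0.64). Tbr1 was most like Eomes (0.83), then Rspo3 (0.75), Fezf2 (0.70) and Dmrta2 (0.61). Among those most like Trp73 were Ska2 (0.74), Csrp2 (0.71), Eomes (0.69) and E2f7 (0.68).

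For Reln the list was Lin28a (0.84), Trib2 (0.81), Srcin1 (0.80), Sdcbp (0.80) and Syt5 (0.78), and it held none of the other 5 members. Lhx1 and Lhx5 named each other (0.79). Lhx1 was further like Atad1 (0.78), Morn2 (0.78), Tspan11 (0.75) and Rorb (0.75), and Lhx5 like Rorb (0.80), Mpdu1 (0.79), Tug1 (0.77) and Paip2 (0.77).

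The comparison of the labels asked whether any of the 6 genes differed between libraries labelled Apcdd1+/- and WT. No gene tested passed edgeR's quasi-likelihood test with Benjamini-Hochberg adjustment at 0.05 in any set of cells, and all adjusted p-values of the members were 1.00. Over all cells 0 of 15966 genes (0%) passed and 188 (1.18%) had an unadjusted p under 0.05. Progenitor-gated cells had 0 of 14542 and 204 (1.4%), neuroblast-gated cells 0 of 10933 and 296 (2.71%), neuron-gated cells 0 of 11728 and 227 (1.94%), and the Lhx2-led cluster 0 of 5987 and 203 (3.39%). DESeq2 called 3 genes over all cells and 0 in each of the other sets. All sets use the same 4 libraries and are nested or side by side, so their values are not independent of each other.

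Eomes was the member with the most regular difference in CPM, though it passed no adjusted threshold in this test as run on all 4 libraries with the low-count filter and no block. In neuron-gated cells the levels of 54.9 and 43.5 CPM in the libraries labelled Apcdd1+/- lay below the 93.5 and 75.6 CPM of WT. On the log2 scale the labels differed by -0.74 (SE 0.21, unadjusted p = 0.00395, edgeR adjusted p = 1.00), with a 95% interval of -1.19 to -0.29. In the Lhx2-led cluster 613 and 709 CPM lay below 1135 and 1059, a log2 difference of -0.71 (SE 0.21, interval -1.15 to -0.27). Apcdd1 in this cluster ran the other way, at 69.2 and 90.4 against 11.5 and 41.0 CPM from 85 UMIs (log2 difference 1.76, SE 0.49, unadjusted p = 0.00163, edgeR adjusted p = 1.00; without WT 2, 2.73 with an adjusted p of 0.0319 from 2 libraries against 1). Over all cells the Eomes difference was -0.84 (SE 0.23, interval -1.38 to -0.30), and in neuroblast-gated cells, where the groups overlapped, -0.20 (SE 0.25). In progenitor-gated cells the Eomes difference was -2.56 (SE 0.64), from 5, 4, 37 and 11 UMIs in 25 cells of 14264. That difference was called with a replicate block (-2.60, edgeR adjusted p = 0.00788) and without the low-count filter (-2.54, adjusted p = 0.0356), and without WT 1 it was -1.63. The share of the cluster among clustered cells did not follow the label (5.76 and 6.41% against 6.26 and 5.67%). In neuron-gated cells outside the 2 sensory clusters the log2 difference was -0.83. Both WT libraries were also the deeper ones, with median depths of 8552.5 and 13949.5 UMIs per neuron-gated cell against 7077 and 7413, and the part of depth was not tested.

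Leaving out a single library brought Eomes past the threshold in 2 more sets of cells. Each of these fits compares 1 library labelled Apcdd1+/- with 2 of WT and assumes that the lone library varies as the WT pair does, and the same omissions brought 222 genes past the threshold over all cells and 10 in neuron-gated cells. Without Apcdd1+/- 2 the difference over all cells was -0.998 with an adjusted p of 0.00924, and without Apcdd1+/- 1 that in neuron-gated cells was -0.94 with an adjusted p of 0.0445. Without WT 1 the all-cell difference was -0.53. Over the alternatives of the all-cell comparison the edgeR or DESeq2 adjusted p ran from 0.00924 to 1.00, and over those of the neuron-gated comparison from 0.0445 to 1.00. At double the neuron threshold the neuron-gated difference was -0.11. The direction did not change in any alternative run for all cells, progenitor-gated cells, neuron-gated cells or the cluster.

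Tbr1 overlapped between labels. Neuron-gated cells gave a log2 difference of -0.27 (SE 0.52, interval -1.40 to 0.86), and the cluster -0.42 (SE 0.50). Both values rest on the low Apcdd1+/- 1: without that library they were 0.44 and 0.44, and without Apcdd1+/- 2 the value in the cluster was -2.27 with an edgeR adjusted p of 0.0145, from 1 library against 2, with the spread taken from WT. Trp73 was low in both libraries labelled Apcdd1+/- over all cells (0.21 and 0.60 against 0.67 and 0.78 CPM, log2 difference -0.86, SE 0.48, interval -1.99 to 0.26), from 153 UMIs. This too rests on Apcdd1+/- 1: without that library the difference was -0.26, and without Apcdd1+/- 2 it was -1.72. In the cluster its groups overlapped (-0.59, SE 0.71).

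Reln had opposite signs in neurons and progenitors. Neuron-gated cells stood at 13.5 and 19.7 against 12.001 and 9.66 CPM (log2 difference 0.64, SE 0.30, interval -0.0086 to 1.29), and progenitor-gated cells at 2.97 and 3.59 against 4.57 and 5.22 (-0.55, SE 0.20, interval -0.99 to -0.11, unadjusted p = 0.0204). Neither passed the edgeR adjusted threshold. The progenitor-gated levels were low, and the part of free RNA in them was not tested. The neuron-gated difference was 0.35 without Apcdd1+/- 2 and 0.87 without WT 1. Neuroblast-gated cells overlapped (-0.18, SE 0.58), as did all cells (-0.16, SE 0.21).

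The LIM genes were close between labels. In neuron-gated cells the log2 difference of Lhx1 was -0.015 (SE 0.23) and that of Lhx5 0.076 (SE 0.17). Lhx5 in neuroblast-gated cells stood at 54.1 and 65.9 against 44.7 and 48.2 CPM, without overlap (0.40, SE 0.20, interval -0.027 to 0.82). At double the gate threshold that difference was 0.029, and without Apcdd1+/- 2 it was 0.25. Over all cells Lhx1 gave -0.28 (SE 0.30), with 5.24 CPM in Apcdd1+/- 1 and 10.7, 10.3 and 9.43 in the other libraries. Without Apcdd1+/- 2 that value was -0.85 with an edgeR adjusted p of 0.0244, again from 1 library against 2 with the spread taken from WT, and without Apcdd1+/- 1 it was 0.13.

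Counts of members whose groups did not overlap can be read beside the share of all tested genes that did the same. Both libraries labelled Apcdd1+/- lay below both WT libraries for 2 of 6 members over all cells (13.4% of all genes), 2 of 4 in progenitor-gated cells (15.4%), 0 of 4 in neuroblast-gated cells (16.3%), 1 of 5 in neuron-gated cells (15.7%) and 1 of 5 in the cluster (15.9%). Both lay above for 0 of 6 over all cells (8.09%), 0 of 4 in progenitor-gated cells (8.33%), 1 of 4 in neuroblast-gated cells (12.5%) and 1 of 5 in neuron-gated cells (11.4%). Tbr1 and Trp73 were too low to be tested in progenitor- and neuroblast-gated cells, Trp73 also in neuron-gated cells and Reln in the cluster.

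**Figure D5:**
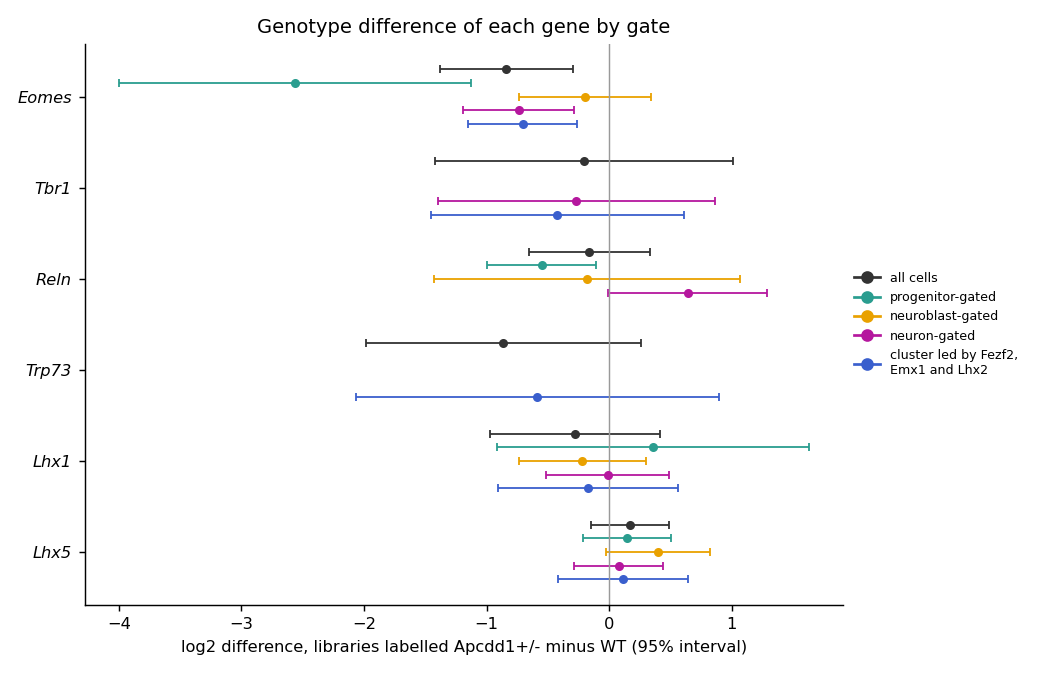
Log2 difference of each gene (libraries labelled Apcdd1+/- minus WT, edgeR, points with 95% intervals) over all cells, in 3 gates and in the cluster led by Lhx2, Fezf2 and Emx1; genes too low to be tested in a set have no point there. Eomes lies below 0 in all 5 sets, and no point has an adjusted p under 0.05.

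The gene groups around the members gave no call in either direction in any gate. In neuron-gated cells the Cajal-Retzius and preplate list had 13 of 13 genes tested, 3 with positive and 10 with negative differences and a median log2 difference of -0.17, against a median of 0.011 over all genes tested. Its 3 most abundant genes were Nhlh2 (429 CPM ± 29.3, SD, n = 4 libraries), Ebf2 (280 ± 40.4) and Ebf3 (223 ± 16.6), all factors of early postmitotic neurons, with log2 differences of -0.068, -0.22 and -0.12. The pallial neurogenesis list had 13 of 15 tested, 7 positive and 6 negative, and a median of 0.0031. Mllt11 (217 ± 8.70), Neurod1 (156 ± 69.3) and Neurog1 (124 ± 13.7) led it.

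The reelin pathway list had 13 of 13 tested in neuron-gated cells, 7 positive and 6 negative, with a median of 0.00055, and was led by Pafah1b1, Fyn and Itgb1 at 365, 144 and 139 CPM. The p53 family and targets had 11 of 12 tested, 7 positive and 4 negative, with a median of 0.050. The cell cycle inhibitor gene Cdkn1a (115 CPM), the death effector Bax (107) and the p53 regulator Mdm4 (89.9) led it. The LIM family and its cofactors had 18 of 19 tested, 8 positive and 10 negative, with a median of -0.017, and were led by Isl1 (436), Ssbp3 (367) and Lmo4 (193).

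The T-box family besides Eomes and Tbr1 had 4 of 15 tested in neuron-gated cells, all negative, with a median of -0.65. Its leaders were Mga at 66.3, 89.9, 76.3 and 100 CPM, Tbx20 at 1.04, 41.4, 25.2 and 44.7, and Tbx3 at 2.85, 31.2, 16.5 and 38.4. Tbx20, a gene of cranial motor neurons, and Tbx3 were low in Apcdd1+/- 1, and both had 0 UMIs in the Lhx2-led cluster.

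The share of neuron-gated cells with a UMI was compared after thinning each cell to 5000 UMIs, which left out 132, 119, 117 and 23 shallower cells. Eomes was found in 4.20, 4.25, 8.31 and 4.27% of cells, Tbr1 in 0.56, 2.29, 3.90 and 3.32%, and Reln in 5.88, 6.54, 4.16 and 5.21%. Lhx1 was found in 14.8, 17.97, 21.0 and 18.01%, Lhx5 in 28.9, 26.5, 31.9 and 26.5%, and Trp73 in 0.28 to 0.95%. In mesenchyme-gated cells thinned alike, Eomes was found in 0 to 0.31%, Tbr1 in 0.088 to 0.27%, Reln in 0.88 to 1.44%, Lhx1 in 0.62 to 2.42% and Lhx5 in 1.75 to 2.17%. WT 1 was the one library that stood apart for Eomes. Without thinning the Eomes shares were 4.09, 5.18, 7.57 and 4.27% and the Reln shares 5.93, 10.1, 7.37 and 11.5%.

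The differences in thinned share were -2.06 percentage points for Eomes, -2.18 for Tbr1, 1.52 for Reln, -0.40 for Trp73, -3.11 for Lhx1 and -1.58 for Lhx5. The Eomes value rests on WT 1: it was -0.040 without that library and -4.09 without WT 2. With 1 library left out, the others ran from -3.05 to -1.32 for Tbr1, 0.996 to 2.05 for Reln, -0.58 to -0.21 for Trp73 and -4.68 to -1.55 for Lhx1. A two-sided exact permutation test of 2 against 2 libraries cannot give a p under 0.3333, which was the value for all but Lhx5 (0.667). The adjusted values over the 6 genes were 0.4 for the former 5 and 0.667 for Lhx5.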

How the data were processed

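Per the labels' protocols, libraries were made with a droplet kit for single-cell RNA and sequenced on an MGI instrument. For mapping (aligner and annotation: not given in the sources used here), mm10 is named in the submitters' processing notes, which also name Scanpy 1.9.1. The file headers name PISA 0.12. The deposited values are raw UMI counts per gene and cell, so they are not normalized. The list of bead barcodes of Apcdd1+/- 1 breaks off early.

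The members and gene lists were chosen with earlier results of these data known, and the gate thresholds and the follow-up of the Lhx2-led cluster were chosen after values were seen. Named are the 6 members, the 5 genes most like each over clusters (at least 10 CPM in neuron-gated cells) and the 3 most abundant genes of each list; a few of these genes and a region gate are not reported here. Counts were summed per library over the cells of a gate and tested with edgeR 4.0.16 in R 4.3.3 (quasi-likelihood test, TMM scaling, filterByExpr, Benjamini-Hochberg over all genes tested). Alternatives used DESeq2 1.42.0, RLE scaling, no low-count filter, a replicate block, other thresholds, all barcodes and each library left out. Region gates required 2 UMIs of the named genes. Clusters were made with scanpy 1.11.5 (2000 variable genes, 30 components, 15 neighbours, Leiden resolution 1). No doublets were removed; an alternative left out the top 5% of cells by UMI count in each library. No batch correction was used. On simulated counts, 90% of 2-fold and 100% of 4-fold changes were recovered over all cells, and 57% and 98% in neuron-gated cells, with 14 and 17 false calls. Each rate covers 100 changed genes and was not split by level. Recovery at levels as low as those of Tbr1 and Trp73 was thus not tested.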

Additional observations from a re-analysis of the deposited data

Results flagged for a closer look

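Reln was higher in both libraries labelled Apcdd1+/- in neuron-gated cells and lower in both in progenitor-gated cells, and this opposite direction is why it is given here. The progenitor-gated levels were low, and the part of free RNA in them was not tested. In a model with both gates and a term for each library, the log2 difference in neuron-gated cells minus that in progenitor-gated cells was 1.14 for Reln (SE 0.34, unadjusted p = 0.00347, edgeR adjusted p = 1.00). A difference between the gates was therefore not shown: no gene of 14408 passed, and 516 had an unadjusted p under 0.05. The same term was larger for Eomes, at 1.78 (SE 0.50, unadjusted p = 0.00191, edgeR adjusted p = 1.00), whose label difference was negative in both gates. It was -1.92 (SE 1.12) for Tbr1, -1.11 (SE 1.09) for Trp73, -0.54 (SE 0.45) for Lhx1 and -0.12 (SE 0.16) for Lhx5.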

How the results depend on the processing

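The labels do not say whether libraries with the same replicate number are paired, and the main test used no pairing. Deviations of same-numbered libraries correlated at 0.183 over all cells, 0.0733 in progenitor-gated, 0.0456 in neuroblast-gated and 0.144 in neuron-gated cells, which does not settle it. With a replicate block, 5, 28, 3 and 6 genes were called over all cells and in the progenitor, neuroblast and neuron gates, in place of 0. Eomes in progenitor-gated cells was then called (-2.60, adjusted p 0.00788). Without a filter on low counts 3, 12, 13 and 8 genes were called, Eomes in progenitor-gated cells among them (-2.54, adjusted p 0.0356), and DESeq2 called 3 over all cells. Leaving out 1 library gave 0 to 222 genes over all cells, 0 to 92 in progenitor-gated, 3 to 32 in neuroblast-gated and 3 to 23 in neuron-gated cells, and 2 to 6 in the Lhx2-led cluster. The highest count came without Apcdd1+/- 2 in each of these sets.

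Leaving out 1 library also turned the sign of small log2 differences. The ranges were -1.22 to 0.44 for Tbr1, -0.40 to 0.037 for Reln and -0.85 to 0.13 for Lhx1 over all cells. In progenitor-gated cells they were -0.38 to 1.37 for Lhx1 and -0.033 to 0.38 for Lhx5, and in neuroblast-gated cells -0.46 to 0.18 for Eomes, -0.35 to 0.24 for Reln and -0.50 to 0.090 for Lhx1. In neuron-gated cells they were -1.78 to 0.44 for Tbr1, -0.38 to 0.27 for Lhx1 and -0.066 to 0.22 for Lhx5. In the cluster they were -2.27 to 0.44 for Tbr1, -2.12 to 0.65 for Trp73, -0.79 to 0.27 for Lhx1 and -0.25 to 0.40 for Lhx5. Signs also turned for Reln in neuroblast-gated cells at the lower thresholds (0.081), for Tbr1 (0.21) and Lhx1 (0.19) in neuron-gated cells at double the threshold, and for Lhx5 outside the sensory clusters (-0.020). The cause was not tested.

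The share of cells with Reln turned without thinning (-1.43 points) and at 2 or more UMIs (-0.20), that with Trp73 at double the threshold (0.029), and that with Lhx5 without thinning (0.31), at 2500 UMIs (0.87), at double the threshold (0.25) and with 1 library left out (-4.29 to 1.12). Of 241 alternatives for log2 differences 209 kept direction and call, 26 turned and 6 gained a call. Trp73 with 153 UMIs and Tbr1 with 189 are limited by depth.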
